A study of Drosophila melanogaster with 17 samples.

Results

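The question addressed here is whether eye discs that lack Dp answer gamma radiation differently from eye discs that lack E2f1 in their posterior part. The data are 12 of the 17 arrays of the series, chosen by their titles: dDP mutant discs irradiated, dDP mutant discs untreated, de2f1 discs irradiated and de2f1 discs untreated, with 3 biological replicates in each of the 4 groups. The tissue was the eye imaginal disc of Drosophila melanogaster larvae in the 3rd instar, the sac of epithelium from which the adult compound eye forms. Irradiated larvae received 40 Gy of gamma rays and were dissected 4 h later, untreated larvae received none, and both genotypes were handled alike. Each array was made from 50 ng of total RNA. In the de2f1 discs the gene was deleted in the posterior only, so cells elsewhere in those discs still carried it, whereas the dDP label names no region. The alleles and the driver of the deletion are not given in the sources used here, and all comparisons below are between the 2 mutants, with no wild type array in the fit. In a bulk sample of this kind, fewer cells of a type and less RNA per cell cannot be told apart.

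E2F transcription factors switch on genes for DNA replication and cell cycle progress. They bind DNA as pairs with Dp, so loss of Dp takes away both the activator E2f1 and the repressor E2f2, while loss of E2f1 leaves E2f2 with its Dp partner. Retinoblastoma family proteins hold E2F in check, and Dp and E2f2 are also parts of the dREAM complex, which keeps many genes silent. In larval discs ionising radiation activates p53 and the checkpoint kinases, which raises DNA repair and cell death genes and slows the cell cycle.

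The quantity reported for each probe set is the effect difference: the irradiated minus untreated mean of dDP discs, less the irradiated minus untreated mean of de2f1 discs, on the log2 scale. A value above 0 means that the step on irradiation was more positive in dDP discs, and a value below 0 that it was less positive or more negative there. Each error of an effect difference is its standard error from limma's moderated fit over the 12 arrays. A probe set was called when its Benjamini-Hochberg adjusted p over all 18769 tested probe sets was under 0.05. The irradiation steps within a genotype are given as the parts of this difference and were not tested on their own here. A group mean below 4.60 on the log2 scale, the highest lower quartile of any array, is described as near the floor.

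The arrays were of similar brightness, with medians of 5.82 to 5.99, and 4 things set some of them apart before any gene is compared. The mean correlation of an array with its 2 fellow replicates was 0.983 for dDP untreated array 1, 0.990 for the other untreated dDP arrays and 0.992 to 0.997 for the remaining 9. On dDP untreated array 1 the 6 fat body markers averaged 10.98, against 6.16 to 9.88 on the other 11 arrays. The actin control signal was higher toward the 3-prime end of the transcript than toward its 5-prime end on all arrays, with a log2 gap of 3.05 and 3.26 for dDP untreated arrays 2 and 3 and of 1.86 to 2.27 elsewhere. The 11 salivary gland markers averaged 7.14, 12.15 and 12.22 on the irradiated dDP arrays, 5.80 to 6.85 on the untreated dDP arrays, 10.10 to 12.55 on the irradiated de2f1 arrays and 6.61, 12.59 and 10.85 on the untreated de2f1 arrays. The 13 markers of the labelled eye disc averaged 10.18 to 10.28 on irradiated and 10.16 to 10.30 on untreated dDP arrays, and 9.98 to 10.22 on irradiated and 10.16 to 10.31 on untreated de2f1 arrays, and 12 of the 13 had an effect difference above 0, with a median of 0.15 and 0 called by limma (1 at an unadjusted p under 0.05). Hemocyte markers, 15 genes of blood cells, averaged 7.78 to 8.06 and 8.04 to 8.35 on irradiated and untreated dDP arrays and 8.996 to 9.35 and 9.45 to 9.93 on irradiated and untreated de2f1 arrays. The median standard deviation between replicates was 0.0869 and 0.114 for irradiated and untreated dDP discs and 0.0736 and 0.0802 for irradiated and untreated de2f1 discs. The replicates are labelled biological, nothing further is said of their origin, and the p-values measure the spread between these samples.

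The 2 mutants differed in their irradiation step at few probe sets. Of 18769 tested, 14 were called (0.0746%), with 8 effect differences above 0 (0.0426%) and 6 below 0 (0.0320%), and their sizes ran from 0.66 to 1.88. At an unadjusted p under 0.05 there were 1653 (8.81%), 792 above 0 (4.22%) and 861 below 0 (4.59%). Over the 11982 genes with a symbol and the brightest probe set of each, 10 were called, 4 above 0 (0.0334%) and 6 below 0 (0.0501%), and 9.19% had an unadjusted p under 0.05. The median over all probe sets was -0.02, and 45.1% lay above 0. The called genes with a symbol were dup, Osi4, CG33468, Cftr and Ca-Ma2d above 0 and spn-E, Cyp6a17, CG5250, CG11125, sofe and CG4036 below 0, and the other 3 called probe sets carry no gene symbol. Among the 14, irradiated and untreated arrays stood apart in dDP discs and overlapped in de2f1 discs at 9, stood apart in both genotypes at 3, and stood apart in de2f1 discs alone at 2. The share of all probe sets with such separation was not counted, and the 14 were picked by the difference itself. These counts therefore only describe the 14. All 14 kept their sign in every one of the 26 alternative settings in which they were tested, but only 4 kept their call in all 12 fits that left out 1 array: spn-E, Cyp6a17 and the unnamed probe sets 1630485_at and 1634034_at.

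**Figure D1:**
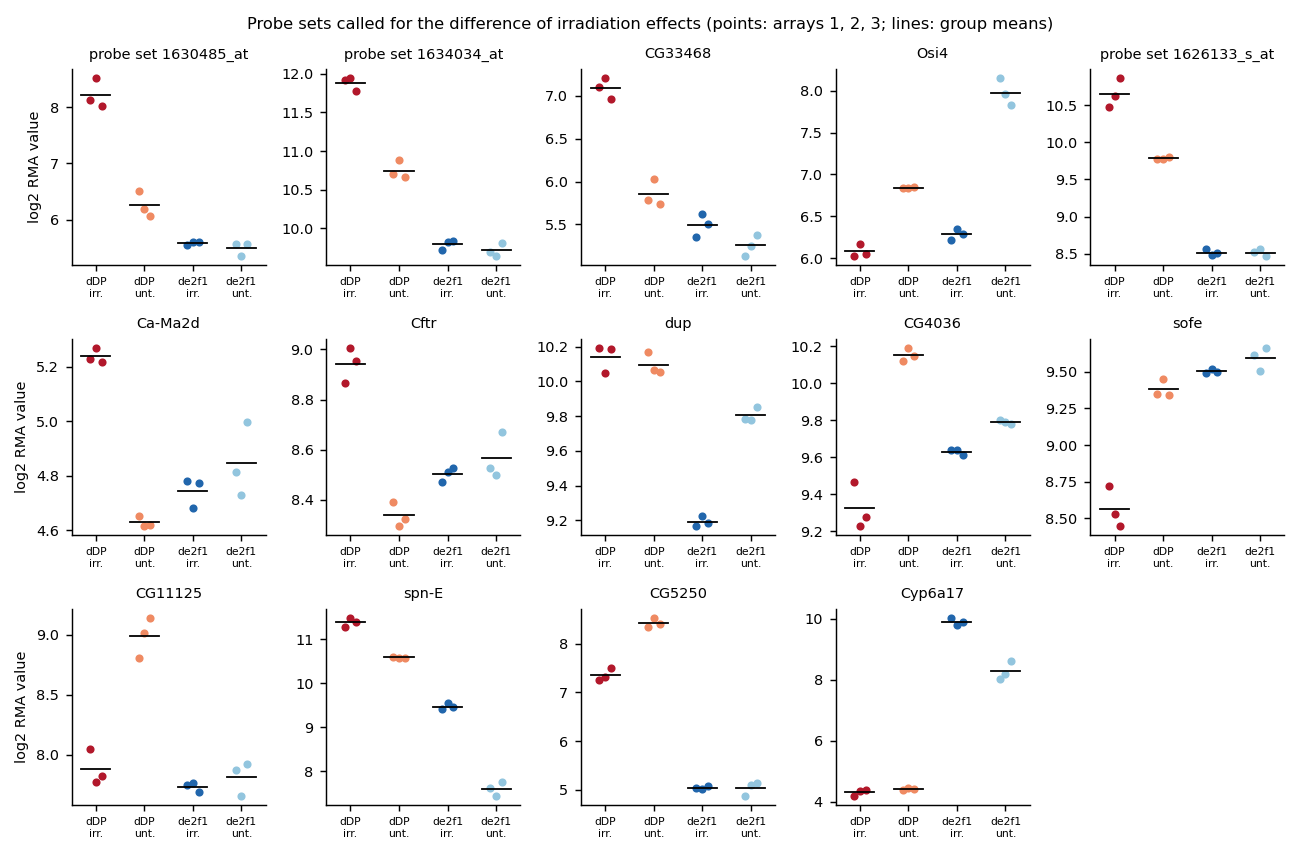
Values of the 14 called probe sets on each of the 12 arrays (log2 RMA value on the y axis, a separate scale for each panel), with groups on the x axis in the order dDP irradiated, dDP untreated, de2f1 irradiated, de2f1 untreated. Points are single arrays and lines are group means. For dup the de2f1 groups separate and the dDP groups do not, whereas for 9 probe sets, such as CG5250, the reverse is seen.

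**Figure D2:**
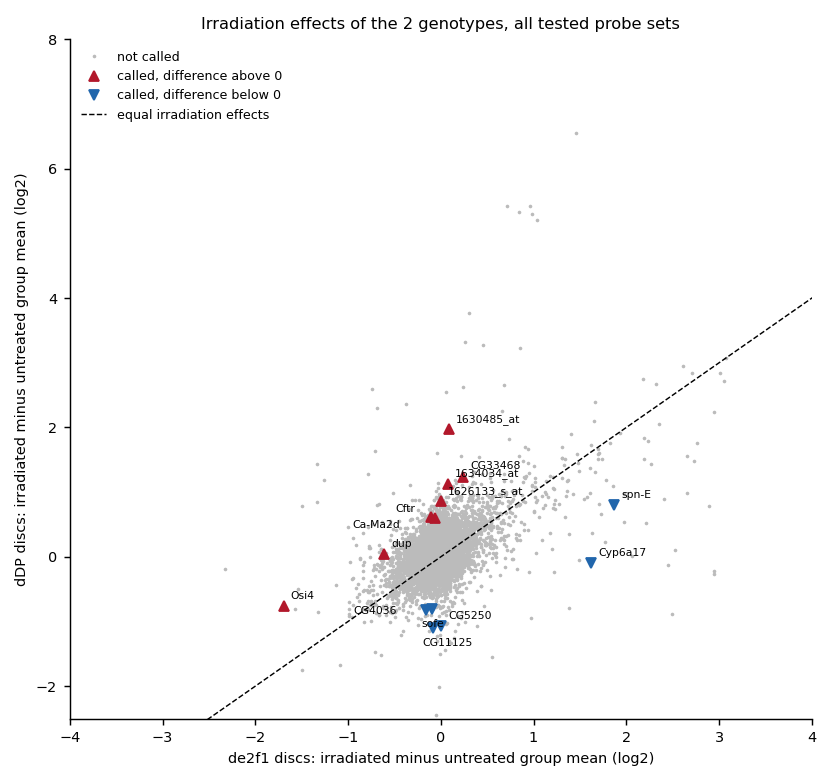
Irradiation step in de2f1 discs (x axis) against that in dDP discs (y axis) for the 18769 tested probe sets, both as irradiated minus untreated group mean in log2 units. The dashed line marks equal steps, red triangles are the 8 called effect differences above 0 and blue triangles the 6 below 0. The uncalled points high above the line include salivary glue genes such as Sgs4, with an effect difference of 5.09.

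Which arrays were fitted decided how many probe sets were called. Without dDP untreated array 1, the array with the highest fat body signal, 822 probe sets were called (4.38%), 455 above 0 (2.42%) and 367 below 0 (1.96%), and all 14 were among them. The untreated dDP group of that fit holds only arrays 2 and 3, those with the large actin control differences. Leaving out any other single array gave 4 to 14 calls. Without dDP untreated arrays 2 and 3, those with the large actin control differences, 117 were called (0.623%), 17 above 0 (0.0906%) and 100 below 0 (0.533%). The 822 and the 117 shared 18 probe sets, which is 2.19% of the first and 15.4% of the second, and 16 of the 18 had the same sign. Weighting each array by its agreement with its group gave 771 calls (4.11%), 463 above 0 (2.47%) and 308 below 0 (1.64%), of which 615 were also among the 822, all with the same sign. The part that fat body material and the actin control difference play in these counts was not tested. Members of the gene lists below that were called without dDP untreated array 1 are to be read against its shares of 2.42% above 0 and 1.96% below 0 over all probe sets. These shares include probe sets without a gene symbol, whereas list members are the brightest probe set of a named gene. The shares over named genes were not counted for that fit.

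**Figure D3:**
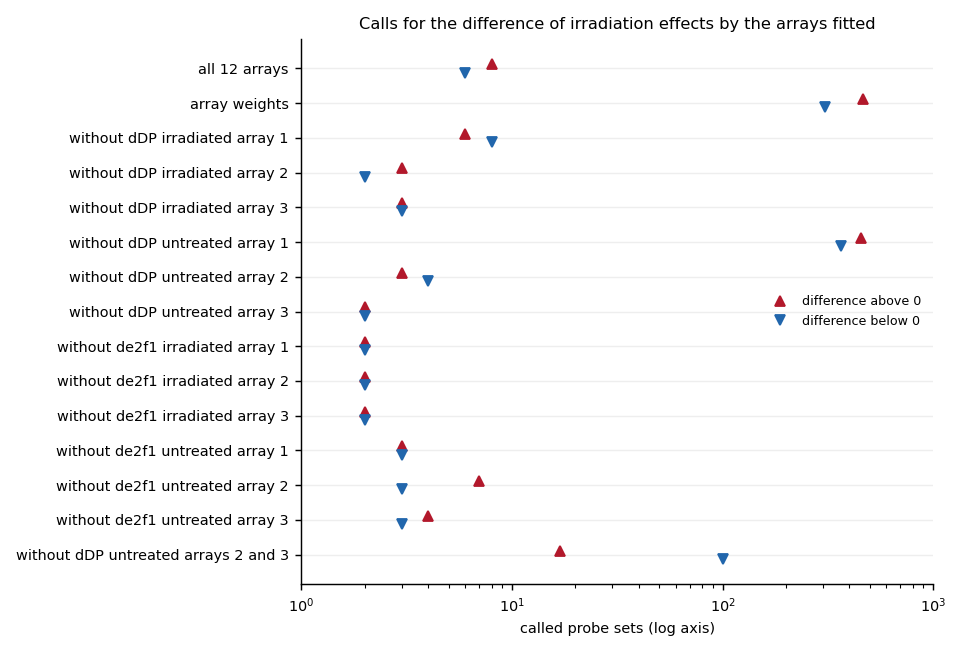
Number of called probe sets (x axis, log scale) by the arrays fitted (y axis), red for effect differences above 0 and blue for those below 0. The fit without dDP untreated array 1 has 455 above and 367 below 0 and the weighted fit 463 and 308, while the fit of all 12 arrays has 8 and 6.

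Dp, the gene that the dDP discs lack by their label, was lower in dDP discs in both treatments. It read 8.88, 8.25 and 8.69 in irradiated dDP discs and 8.94, 8.06 and 8.27 in untreated dDP discs, against 10.12, 10.30 and 10.20 in irradiated and 10.46, 10.30 and 10.50 in untreated de2f1 discs. Every dDP array lay below every de2f1 array, though where on the gene these probes lie relative to the mutation was not analysed here. The effect difference of Dp was 0.40 ± 0.30 (limma, Benjamini-Hochberg adjusted p = 0.688), with a 95% interval of -0.26 to 1.05, and it turned to -0.12 without dDP untreated arrays 2 and 3. E2f1 shares its probe set with another gene and was not analysed here. Of the 11 measured genes for E2F, Dp, the retinoblastoma family and dREAM, 0 were called, and 1, the dREAM gene mip120, had an unadjusted limma p under 0.05, at -0.22 ± 0.08. The median of the 11 was -0.06, beside -0.01 over all 11982 genes with a symbol. E2f2, the repressor E2F, averaged 10.39 in irradiated and 10.35 in untreated dDP discs and 10.12 in irradiated and 10.15 in untreated de2f1 discs, an effect difference of 0.07. For Rbf, the main retinoblastoma protein of the fly, it was 0.11.

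The replication licensing gene dup separated the 2 mutants. It codes for the fly Cdt1, which loads the MCM helicase onto origins of replication. Its values were 10.19, 10.05 and 10.18 in irradiated dDP discs and 10.17, 10.06 and 10.06 in untreated dDP discs, against 9.17, 9.22 and 9.18 in irradiated and 9.79, 9.78 and 9.86 in untreated de2f1 discs. The dDP groups overlapped, whereas every irradiated de2f1 array was below every untreated one. The effect difference was 0.66 ± 0.08 (limma, Benjamini-Hochberg adjusted p = 0.0155), made of a step of 0.05 in dDP discs and one of -0.61 in de2f1 discs. With 1 array left out the effect difference stayed at 0.63 to 0.71, and its adjusted p was 0.0092 to 0.0836. The call held in 4 of these 12 fits, without dDP irradiated array 1 or 2, dDP untreated array 1 or de2f1 untreated array 2.

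Other S phase genes leaned the same way without being called. Among 42 S phase genes 1 was called, dup, beside 0.0835% of all genes, and 15 had an unadjusted p under 0.05 with an effect difference above 0 and 2 with one below 0, beside 4.69% and 4.50% of all genes. Their median effect difference was 0.15, with 30 of 42 above 0, against -0.01 and 5569 of 11982 for all genes. The eye disc markers had a median of the same size, 0.15, and its part in the S phase values was not tested. The median step on irradiation was -0.03 in dDP discs and -0.14 in de2f1 discs. Over the 26 alternative settings the median of the list stayed above 0, at 0.11 to 0.23.

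The members nearest to a call coded for replication enzymes. Prim1, a primase subunit that starts DNA chains, read 9.42, 9.30 and 9.23 in irradiated and 9.22, 9.26 and 9.15 in untreated dDP discs, against 7.56, 7.67 and 7.51 in irradiated and 8.05, 7.91 and 8.19 in untreated de2f1 discs, an effect difference of 0.58 ± 0.11 (limma adjusted p = 0.166). Mcm5, a helicase subunit, read 10.35, 10.22 and 10.16 in irradiated and 10.32, 10.33 and 10.28 in untreated dDP discs, against 9.78, 9.86 and 9.77 in irradiated and 10.34, 10.24 and 10.46 in untreated de2f1 discs. Its effect difference was 0.48 ± 0.10 (limma adjusted p = 0.181). As with dup, the dDP groups of both genes overlapped and the de2f1 groups did not.

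Polymerase, helicase and nucleotide supply genes gave further values. PolE1, the catalytic subunit of DNA polymerase epsilon, averaged 9.33 in irradiated and 9.16 in untreated dDP discs, against 8.04 in irradiated and 8.36 in untreated de2f1 discs (effect difference 0.50 ± 0.11). Ts, for thymidylate synthase, averaged 9.33 and 9.51 in irradiated and untreated dDP discs and 8.27 and 8.96 in irradiated and untreated de2f1 discs (0.51 ± 0.14). The helicase genes dpa, Mcm2 and Mcm6 had effect differences of 0.35, 0.29 and 0.24, and the replication gene Cdc45 had 0.28. None of these was called by limma.

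RnrL, the large subunit of ribonucleotide reductase, differed from the genes above in that its mean was higher after irradiation in both mutants. It read 12.23, 12.36 and 12.20 in irradiated and 11.15, 11.25 and 11.28 in untreated dDP discs, against 11.62, 11.85 and 11.71 in irradiated and 11.16, 11.10 and 11.23 in untreated de2f1 discs. The untreated groups of the 2 genotypes overlapped and the irradiated groups did not. The effect difference was 0.47 ± 0.10 (limma adjusted p = 0.253). It passed at 0.43 when dDP untreated array 1 was left out (adjusted p = 0.0482). The deoxynucleoside kinase gene dnk had 0.44 ± 0.12 (adjusted p = 0.417).

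PCNA, the sliding clamp of the polymerases, averaged 11.46 in irradiated and 11.31 in untreated dDP discs and 11.61 in irradiated and 11.79 in untreated de2f1 discs, an effect difference of 0.32 ± 0.08 (limma adjusted p = 0.318). CycE, the cyclin of S phase entry, averaged 10.66 and 10.58 in irradiated and untreated dDP discs and 10.70 in both de2f1 groups. Its effect difference of 0.08 ± 0.15 had a 95% interval of -0.25 to 0.41. The members that opposed the list most were RfC3, of the clamp loader, at -0.61 ± 0.18, and Psf2, of the GINS helicase complex, at -0.24 ± 0.10, neither called (limma adjusted p = 0.417 and 0.522). Without dDP untreated array 1, 6 members were called above 0 (dup, Prim1, Mcm5, Mcm10, RnrL and dpa, at 0.32 to 0.70) and 2 below 0 (Orc5 at -0.36 and Psf2 at -0.32), where 2.42% and 1.96% of all probe sets were called above and below 0.

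**Figure D4:**
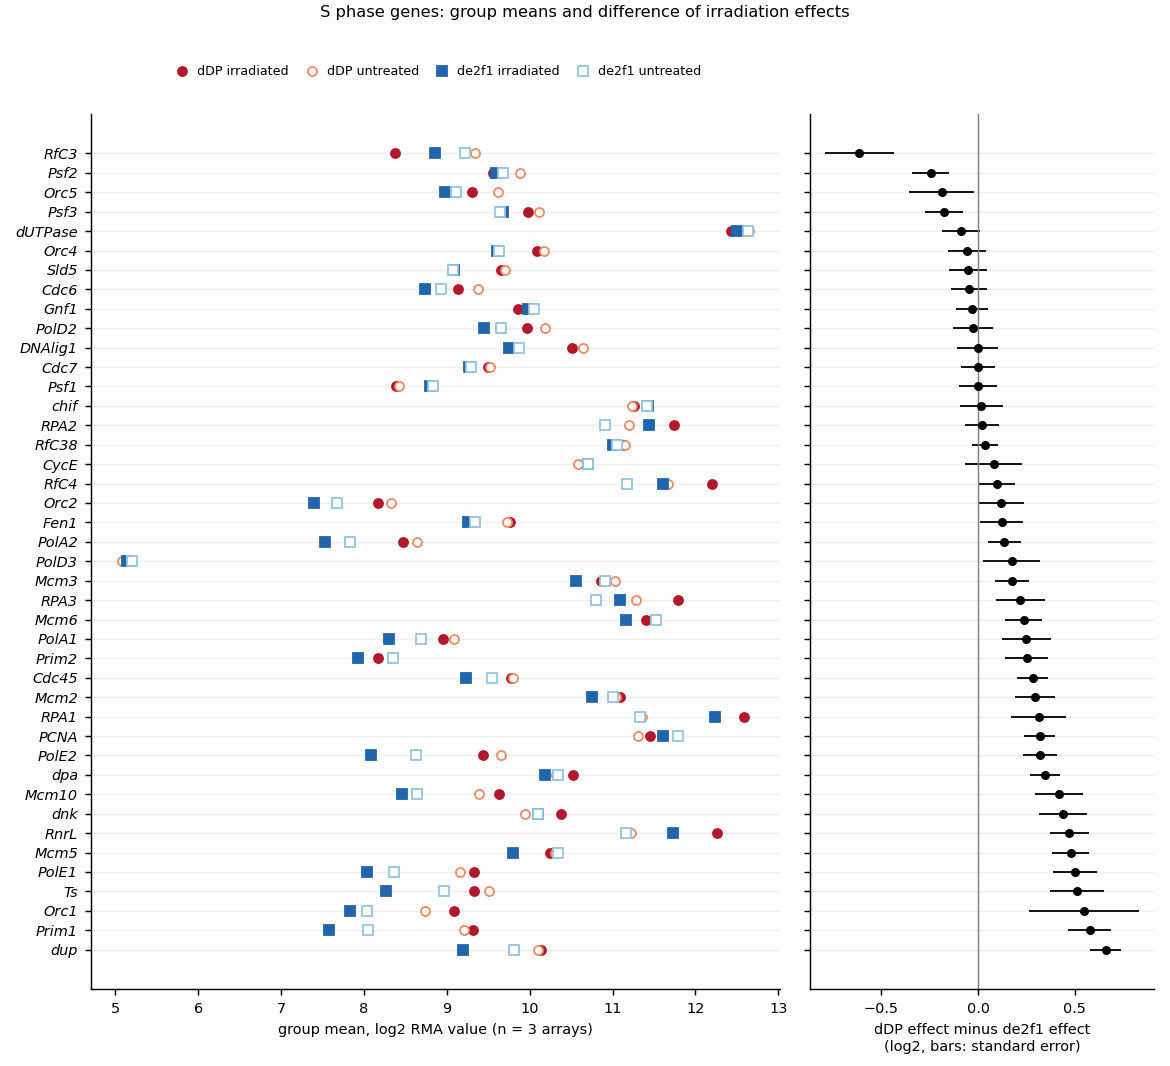
Group means of the 42 S phase genes (left, log2 RMA value, n = 3 arrays per group) and their effect differences with standard errors (right, log2). Genes are ordered by effect difference, with RfC3 at the top (-0.61) and dup at the bottom (0.66), and 30 of 42 lie right of 0.

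Radiation response genes mostly had higher means after irradiation in both mutants, in 26 of 26 cases in dDP discs and 22 of 26 in de2f1 discs. Among all 11982 genes, 4907 did so in dDP discs and 5140 in de2f1 discs. The list was compiled with the irradiation results of these arrays known, so the rise of its members is no result of its own. Where the steps differed most, the step was the smaller one in dDP discs and the untreated level was the higher one. spn-E was the called gene of this list. It codes for an RNA helicase that the germline needs to make piRNAs against transposons. Its values were 11.29, 11.49 and 11.40 in irradiated and 10.61, 10.57 and 10.59 in untreated dDP discs, against 9.41, 9.55 and 9.46 in irradiated and 7.61, 7.44 and 7.75 in untreated de2f1 discs. All 4 groups stood apart, and untreated dDP discs were above irradiated de2f1 discs. The step was 0.80 in dDP discs and 1.87 in de2f1 discs, an effect difference of -1.07 ± 0.11 (limma, Benjamini-Hochberg adjusted p = 0.0087). It was -1.14 to -0.98 with 1 array left out, with an adjusted p of at most 0.0458, and among the alternatives the call was lost with the replicate number as a block (adjusted p = 0.0506).

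Rchy1 and agt came next without being called, Rchy1 being named here after its value was seen. Rchy1 codes for a ubiquitin ligase whose mammalian relative acts on p53. It read 11.19, 11.03 and 11.24 in irradiated and 9.69, 9.55 and 9.68 in untreated dDP discs, against 10.62, 10.82 and 10.78 in irradiated and 8.50, 8.56 and 8.58 in untreated de2f1 discs, an effect difference of -0.69 ± 0.10 (limma adjusted p = 0.0521). agt codes for the enzyme that removes alkyl groups from guanine. It read 11.46, 11.76 and 11.49 in irradiated and 9.59, 9.86 and 9.96 in untreated dDP discs, against 10.37, 10.58 and 10.46 in irradiated and 7.74, 7.59 and 7.81 in untreated de2f1 discs. Its effect difference was -0.996 ± 0.16 (limma adjusted p = 0.0736), with a step of 1.77 in dDP and 2.76 in de2f1 discs. For both genes the 4 groups stood apart. Without dDP untreated array 1 both were called, Rchy1 at -0.66 (adjusted p = 0.0171) and agt at -1.10 (0.0108), whereas without dDP untreated arrays 2 and 3 Rchy1 was called (-0.73, 0.048) and agt was not (-0.78, 0.126).

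Corp, a target and inhibitor of p53, had a large but uneven difference. It read 9.01, 9.76 and 9.39 in irradiated and 7.29, 7.98 and 8.45 in untreated dDP discs, against 8.69, 8.75 and 8.65 in irradiated and 6.08, 5.83 and 5.98 in untreated de2f1 discs. The standard deviation was 0.38 and 0.58 in irradiated and untreated dDP discs, against 0.05 and 0.12 in irradiated and untreated de2f1 discs, and dDP untreated array 1 was the lowest of its group. The effect difference was -1.26 ± 0.36 (limma adjusted p = 0.417), -1.57 without dDP untreated array 1 (adjusted p = 0.0184) and -0.65 without dDP untreated arrays 2 and 3 (adjusted p = 0.592). Similar spreads were seen for rdog (-1.01 ± 0.40) and CG15784 (-0.76 ± 0.29), which were likewise called only when array 1 was left out, at -1.37 and -1.06, or when arrays were weighted.

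Over the list of 26 radiation response genes, which was compiled with the irradiation results of these arrays known, 1 was called, spn-E, beside 0.0835% of all genes, and 9 had an unadjusted p under 0.05 with an effect difference below 0 and 5 with one above 0, beside 4.50% and 4.69%. Leaving out dDP untreated array 1 gave 7 calls below 0 and 1, RnrL, above 0, beside 1.96% and 2.42% of all probe sets. The median effect difference was -0.13, with 8 of 26 above 0, beside 46.5% of all genes. The median step was 0.92 in dDP discs and 1.30 in de2f1 discs. Of the 26, 21 had the higher untreated mean in dDP discs, beside 5420 of all 11982 genes. They included 17 of the 18 members with an effect difference below 0, beside 3541 of 6413 such genes among all. The median gap of dDP over de2f1 discs in the list was 0.59 in irradiated and 0.83 in untreated discs. The effect difference equals the irradiated gap less the untreated gap, so a higher untreated level enters it directly. Over the alternatives the list median ran from -0.31 without dDP untreated array 1 to -0.04 without dDP untreated arrays 2 and 3.

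Other damage genes differed less between the mutants. The TNF ligand gene egr averaged 11.10 in irradiated and 9.51 in untreated dDP discs and 11.31 in irradiated and 9.84 in untreated de2f1 discs. Its effect difference of 0.13 ± 0.11 had a 95% interval of -0.11 to 0.37. Ku80, which binds broken DNA ends, had -0.16 ± 0.17 with an interval of -0.54 to 0.22, and p53 had -0.39 ± 0.21 with one of -0.87 to 0.08. The break repair genes mre11 and rad50 had -0.36 ± 0.12 and -0.29 ± 0.10, and Irbp, the partner of Ku80, had -0.59 ± 0.17. None of these 6 was called (limma adjusted p of 0.417 to 0.778). Irbp was called without dDP untreated array 1, at -0.72 (adjusted p = 0.0262).

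**Figure D5:**
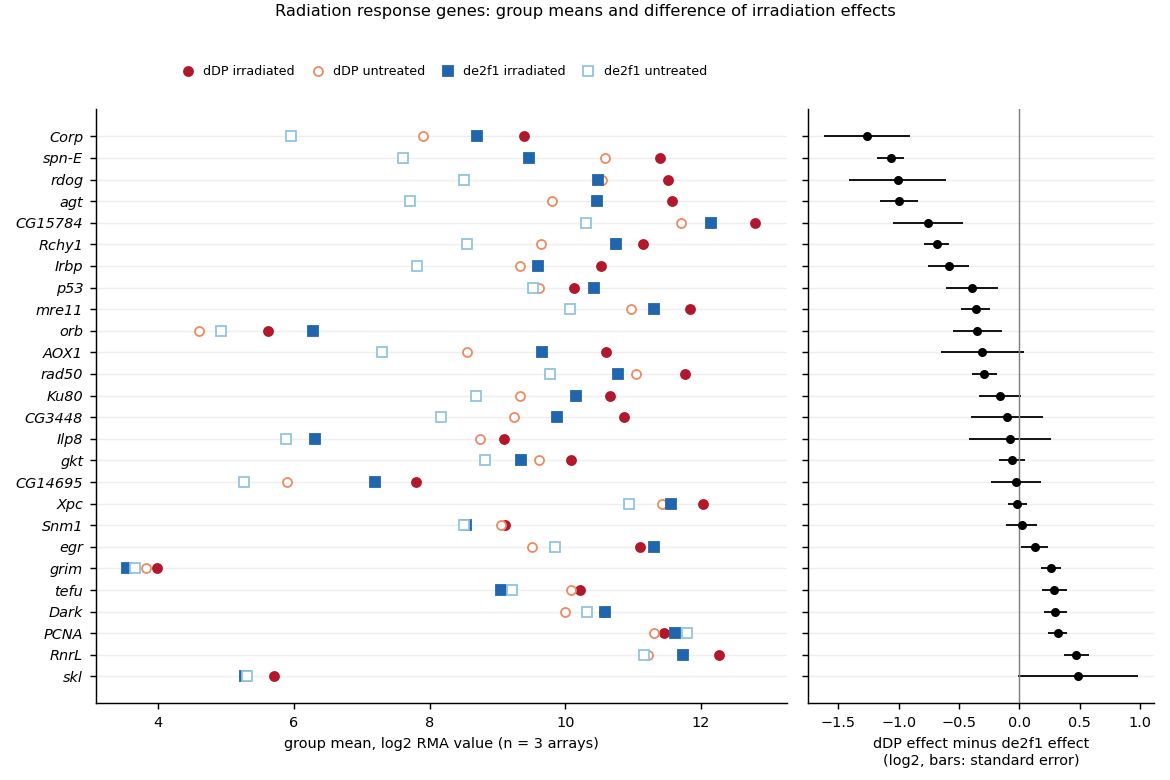
Group means of the 26 radiation response genes (left, log2 RMA value, n = 3 arrays per group) and their effect differences with standard errors (right, log2). From Corp (-1.26) to Irbp (-0.59) at the top, the open circles of untreated dDP discs lie well right of the open squares of untreated de2f1 discs, and 18 of 26 genes lie left of 0.

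DNA repair and checkpoint genes split in both directions. Among 46, 0 were called, and 6 had an unadjusted limma p under 0.05 above 0 and 7 below 0, beside 4.69% and 4.50% of all genes, with a median of -0.01 and 23 above 0. The members above 0 included RecQ4, a helicase needed to fire origins, which read 9.25, 9.27 and 9.11 in irradiated and 9.14, 9.13 and 9.14 in untreated dDP discs, against 7.15, 7.38 and 7.24 in irradiated and 7.73, 7.68 and 7.71 in untreated de2f1 discs. The dDP groups overlapped and the de2f1 groups did not, as for dup. The effect difference of RecQ4 was 0.52 ± 0.09 (limma adjusted p = 0.147). The fork genes Claspin (0.64 ± 0.20) and timeout (0.50 ± 0.10) and the exonuclease gene WRNexo (0.61 ± 0.13) gave values of the same sign. Those below 0 included agt, Irbp, mre11 and rad50, already described, and Fancl of the crosslink repair pathway (-0.39 ± 0.10). Without dDP untreated array 1, 4 of the list were called above 0 (WRNexo, RecQ4, timeout and Claspin) and 3 below 0 (agt, Irbp and Fancl), beside 2.42% and 1.96% of all probe sets.

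G2 and M phase genes had 0 of 39 called. The median effect difference was -0.07, 8 of 39 lay above 0, beside 46.5% of all genes, and 0 and 7 had an unadjusted limma p under 0.05 above and below 0, beside 4.69% and 4.50%. The 7 were ncd, a spindle kinesin, Kmn1, Nuf2 and Nnf1a of the kinetochore, mad2 of the spindle checkpoint, Incenp of the chromosomal passenger complex and barr of condensin. ncd averaged 10.34 in irradiated and 11.01 in untreated dDP discs and 10.31 in irradiated and 10.65 in untreated de2f1 discs, an effect difference of -0.33 ± 0.08 (limma adjusted p = 0.319). Incenp averaged 11.36 and 11.82 in irradiated and untreated dDP discs and 10.88 and 11.12 in irradiated and untreated de2f1 discs (-0.23 ± 0.09, adjusted p = 0.518). When dDP untreated array 1 was left out, Incenp (-0.29) and Kmn1 (-0.71) were called below 0 and the condensin gene Cap-H2 above 0 (0.85), beside 1.96% and 2.42% of all probe sets.

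Cell death genes had 0 of 19 called, a median of 0.08, and 4 and 3 members with an unadjusted limma p under 0.05 above and below 0, beside 4.69% and 4.50% of all genes. Dronc, the initiator caspase, averaged 11.09 in irradiated and 10.11 in untreated dDP discs and 11.09 in irradiated and 10.46 in untreated de2f1 discs. Both irradiated means were the same to within 0.01, and the effect difference of 0.34 ± 0.09 (limma adjusted p = 0.346) came from the untreated means. Its activator Dark had 0.30 ± 0.09 (adjusted p = 0.462). Of the killer genes, grim had all 4 means near the floor, and skl had 0.49 ± 0.50 with a 95% interval of -0.61 to 1.59. Without dDP untreated array 1, Dronc (0.39) and the inhibitor gene Bruce (0.95) were called above 0 and Corp and the Bcl-2 family gene Buffy (-0.59) below 0, beside 2.42% and 1.96% of all probe sets. The list member Damm had -0.63 on all arrays and -1.89 without dDP untreated arrays 2 and 3, a fit that leaves 1 array in that group. The 21 JNK and injury genes had 0 called and a median of -0.06, and 1, Mmp2 (1.40), was called above 0 without dDP untreated array 1. The 2 with an unadjusted limma p under 0.05, the JNK targets and regulators scaf (-0.44 ± 0.13) and Traf4 (-0.35 ± 0.10), had untreated means of 11.22 and 10.74 in dDP discs, against 10.26 and 10.03 in de2f1 discs.

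Genes of the mitochondrial ribosome leaned below 0 together by small amounts. None of 69 was called, 68 had an effect difference below 0, the median was -0.16, and 1 and 14 had an unadjusted limma p under 0.05 above and below 0, beside 4.69% and 4.50% of all genes. The median step on irradiation was -0.19 in dDP discs and -0.02 in de2f1 discs. The lowest value, -0.43 ± 0.11, was that of mRpL36, which read 10.33, 10.31 and 10.24 in irradiated and 10.65, 10.95 and 10.92 in untreated dDP discs, against 10.51, 10.51 and 10.42 in irradiated and 10.55, 10.63 and 10.59 in untreated de2f1 discs. Its lowest untreated dDP value was on array 1. Without that array 23 of the list were called below 0 and 1, mRpS5 (0.71), above 0, beside 1.96% and 2.42% of all probe sets, and the median was -0.26. Without dDP untreated arrays 2 and 3 it was -0.03 with 0 called, and with the actin control difference as a covariate -0.08 with 0 called. Respiratory chain and ATP synthase genes had 0 of 74 called, a median of -0.06, 18 above 0 and 2, both below 0, at an unadjusted limma p under 0.05. In the fit that left out array 1 of untreated dDP discs, the ATP synthase gene ATPsynbeta was called above 0 (1.20, limma adjusted p = 0.0115, against 0.78 on all arrays), and the complex I genes ND-B14, ND-B14.5B, ND-B16.6 and ND-B17 were called below 0 (-0.39 to -0.33). Cytoplasmic ribosomal protein genes had 0 of 41 called, a median of -0.01 and 1 at an unadjusted limma p under 0.05.

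Cyp6a17 had the largest called effect difference below 0. It codes for a cytochrome P450, an oxidising enzyme. It read 4.20, 4.37 and 4.39 in irradiated and 4.38, 4.45 and 4.41 in untreated dDP discs, against 10.03, 9.82 and 9.88 in irradiated and 8.04, 8.21 and 8.63 in untreated de2f1 discs. Both dDP groups were near the floor, where no step could be measured, and every irradiated de2f1 array was above every untreated one. The effect difference was -1.71 ± 0.18 (limma, Benjamini-Hochberg adjusted p = 0.0087), and the call held in all 26 alternative settings (-1.88 to -1.53). It was the only one called among 94 detoxification genes, beside 0.0835% of all genes, and 8 above 0 and 4 below 0 had an unadjusted p under 0.05, beside 4.69% and 4.50%, with a list median of -1.5e-04. Calls of this list without dDP untreated array 1 were Cyp6d4 (0.48), GstT2 (0.42) and GstO3 (0.30) above 0 and Cyp6a17, Cyp6a2 (-0.996) and GstO1 (-0.34) below 0. In that fit 2.42% of all probe sets were called above 0 and 1.96% below 0.

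Osi4, of the Osiris family of insect epithelial and cuticle genes, had lower means after irradiation in both mutants. It read 6.03, 6.17 and 6.04 in irradiated and 6.84, 6.84 and 6.85 in untreated dDP discs, against 6.22, 6.35 and 6.29 in irradiated and 8.15, 7.96 and 7.83 in untreated de2f1 discs. The step was -0.76 in dDP and -1.70 in de2f1 discs, an effect difference of 0.94 ± 0.11 (limma, Benjamini-Hochberg adjusted p = 0.0155). The call held without dDP irradiated array 1, dDP untreated array 1 or any of the untreated de2f1 arrays, and the adjusted p was at most 0.0819 without any other array. Osi4 was the only one called among 105 cuticle and Osiris genes, beside 0.0835% of all genes, and 2 above 0 and 7 below 0 had an unadjusted p under 0.05, beside 4.69% and 4.50%.

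Of the remaining called genes below 0, 4 had lower means after irradiation in dDP discs and nearly level means in de2f1 discs. CG5250 read 7.25, 7.32 and 7.51 in irradiated and 8.34, 8.53 and 8.41 in untreated dDP discs, against 5.03, 5.02 and 5.08 in irradiated and 4.88, 5.09 and 5.15 in untreated de2f1 discs (-1.07 ± 0.12, limma adjusted p = 0.0155). CG11125 read 8.05, 7.77 and 7.83 in irradiated and 8.81, 9.02 and 9.14 in untreated dDP discs, against 7.75, 7.77 and 7.69 in irradiated and 7.87, 7.66 and 7.93 in untreated de2f1 discs (-1.02 ± 0.14, adjusted p = 0.0376). For both genes the dDP groups stood apart and the de2f1 groups overlapped. sofe read 8.72, 8.53 and 8.45 in irradiated and 9.35, 9.45 and 9.34 in untreated dDP discs, against 9.49, 9.52 and 9.50 in irradiated and 9.62, 9.50 and 9.66 in untreated de2f1 discs (-0.72 ± 0.10, adjusted p = 0.0376). CG4036 read 9.46, 9.23 and 9.28 in irradiated and 10.12, 10.19 and 10.15 in untreated dDP discs, against 9.64, 9.64 and 9.61 in irradiated and 9.80, 9.79 and 9.78 in untreated de2f1 discs (-0.67 ± 0.09, adjusted p = 0.0223). For sofe the de2f1 groups overlapped, and for CG4036 all 4 groups stood apart. CG5250 kept its call in 7 of the 12 fits without 1 array. The call of the other 3 held without dDP irradiated array 1 or dDP untreated array 1 and was lost without any of the other 10 arrays, with an adjusted p of at most 0.144.

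Above 0, CG33468, Cftr and Ca-Ma2d had higher means after irradiation in dDP discs. In de2f1 discs the step was 0.24 for CG33468, -0.06 for Cftr and -0.10 for Ca-Ma2d. CG33468 read 7.11, 7.21 and 6.96 in irradiated and 5.79, 6.03 and 5.74 in untreated dDP discs, against 5.35, 5.62 and 5.51 in irradiated and 5.13, 5.25 and 5.38 in untreated de2f1 discs (1.00 ± 0.15, limma adjusted p = 0.0471). Cftr, named for the human chloride channel, read 8.87, 9.005 and 8.95 in irradiated and 8.39, 8.30 and 8.33 in untreated dDP discs, against 8.47, 8.51 and 8.53 in irradiated and 8.53, 8.50 and 8.67 in untreated de2f1 discs (0.67 ± 0.08, adjusted p = 0.0223). In both cases the dDP groups stood apart and the de2f1 groups overlapped. Ca-Ma2d, for an accessory subunit of calcium channels, read 5.23, 5.27 and 5.22 in irradiated and 4.65, 4.62 and 4.62 in untreated dDP discs, against 4.78, 4.68 and 4.77 in irradiated and 4.81, 4.73 and 4.997 in untreated de2f1 discs (0.71 ± 0.09, adjusted p = 0.0247). This was the dimmer of its 2 probe sets and lay close to the floor, and the brighter one gave 0.29 ± 0.14 and was not called (adjusted p = 0.575). CG33468 held its call in 2 of the 12 fits without 1 array, and Cftr and Ca-Ma2d in 3 each. All 3 held it without dDP untreated array 1.

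The remaining 3 called probe sets have no gene symbol in the annotation used. Probe set 1630485_at read 8.13, 8.52 and 8.02 in irradiated and 6.50, 6.20 and 6.06 in untreated dDP discs, against 5.55, 5.60 and 5.60 in irradiated and 5.57, 5.35 and 5.56 in untreated de2f1 discs, an effect difference of 1.88 ± 0.19 (limma adjusted p = 0.0087). It was the largest called difference in either direction. Probe set 1634034_at read 11.92, 11.94 and 11.77 in irradiated and 10.70, 10.88 and 10.66 in untreated dDP discs, against 9.72, 9.82 and 9.84 in irradiated and 9.70, 9.65 and 9.81 in untreated de2f1 discs (1.06 ± 0.11, adjusted p = 0.0087). Probe set 1626133_s_at read 10.47, 10.62 and 10.86 in irradiated and 9.78, 9.78 and 9.80 in untreated dDP discs, against 8.56, 8.48 and 8.51 in irradiated and 8.52, 8.56 and 8.47 in untreated de2f1 discs (0.87 ± 0.12, adjusted p = 0.0268). All 3 were higher in dDP than in de2f1 discs in both treatments, and their de2f1 groups overlapped. The call of 1626133_s_at held in 3 of the 12 fits without 1 array: without dDP irradiated array 1 or 3 or dDP untreated array 1.

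The largest effect differences of all were not called. They belonged to salivary glue genes, which code for the secretion that fixes the pupa to its support and are made in the salivary gland. Sgs4 read 7.27, 12.69 and 14.09 in irradiated and 4.73, 4.70 and 4.98 in untreated dDP discs, against 12.31, 11.49 and 11.00 in irradiated and 4.92, 12.68 and 12.82 in untreated de2f1 discs, an effect difference of 5.09 ± 2.92 (limma adjusted p = 0.617). Irradiated dDP array 1 and untreated de2f1 array 1 were far below the other arrays of their groups. Over the 11 salivary gland markers the median was 4.17, with 0 called and 0 at an unadjusted limma p under 0.05. Across all probe sets 111 differed by more than 1 log2 unit, 55 above and 56 below 0, of which 7 were called and 31 had an unadjusted p under 0.05. The fat body markers had a median of 0.69 and the hemocyte markers one of 0.30, with 0 called by limma in either, and 0 and 2 at an unadjusted p under 0.05. With the mean salivary marker level of each array as a covariate 7 probe sets were called, 6 of them among the 14, and without dDP irradiated array 1 and de2f1 untreated array 1 together 16 were called, 9 of them among the 14.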

How the data were processed

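Affymetrix Drosophila Genome 2.0 arrays of dDP and de2f1 eye discs, untreated or irradiated, were compared. The authors summarised each probe set with RMA on the log2 scale, per the submitters' processing notes, which name no version. RMA shares information between arrays, and values near the floor understate differences. No further scaling was applied. The table held 18952 probe sets on 17 arrays. The 183 AFFX control probe sets were left out. Of 18769 tested, 13647 carried 1 symbol, 402 several and 4720 none, from the platform annotation checked by Entrez ID against a RefSeq gene table (13544 matched). Lists used 11982 genes, with the brightest probe set for the 1094 genes with several.

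One mean per group was fitted over the 12 arrays with limma's lmFit and eBayes (limma 3.58.1, R 4.3.3; untrended, prior of 2.58 degrees of freedom and SD 0.0963, 8 residual degrees of freedom). The median standard error of 0.119 reflects the number of arrays. Named genes were 16 fixed genes, called genes (up to 12 per direction, those that held without any 1 array first) and up to 4 called members per list; called probe sets outside this rule and the genes just past the threshold were named after their values were seen. Members, the 18 gene lists and the marker lists were chosen with earlier results of these data known. The 26 alternatives were other priors, array weights, filters, quantile normalization, all 17 arrays, a replicate block, marker and actin covariates, and arrays left out. The fit was tested on simulated data with independent noise of equal spread in every group. That test did not cover arrays that stand apart from their group. Tables were made with pandas 2.3.3 under Python 3.11.15 and figures with matplotlib 3.10.9.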

Additional observations from a re-analysis of the deposited data

Results flagged for a closer look

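The 14 probe sets below were picked out because a test of the difference itself, between the irradiation effect of dDP discs and that of de2f1 discs, passed limma's Benjamini-Hochberg threshold. Values are log2 effect differences. Above 0 were 1630485_at (1.88), 1634034_at (1.06), CG33468 (1.00), Osi4 (0.94), 1626133_s_at (0.87), Ca-Ma2d (0.71), Cftr (0.67) and dup (0.66). Below 0 were Cyp6a17 (-1.71), CG5250 (-1.07), spn-E (-1.07), CG11125 (-1.02), sofe (-0.72) and CG4036 (-0.67). For Cyp6a17 both dDP means were near the floor, so its value sets the de2f1 step against a step that could not be measured. Dixon's test for an outlying sample was not run, since each group holds 3 arrays.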

How the results depend on the processing

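The 14 calls (8 above 0 and 6 below) kept their sign in every alternative in which they were tested, but their number did not hold. It was 22 with all 17 arrays, 771 with array weights (463 above 0, 308 below), 7 with the salivary marker covariate, 8 with the fat body covariate, 117 without dDP untreated arrays 2 and 3 (17 above, 100 below) and 437 without array 1 of both dDP groups (218 and 219). With 1 array left out it ran from 4 to 822, the upper end without dDP untreated array 1 and at most 14 otherwise. Within 1.5 times of 14 the split still moved: 7 above and 8 below after quantile normalization, 9 and 10 with a robust prior, 5 and 9 with 1 probe set per gene, 8 and 10 without the 40% dimmest probe sets, 11 and 5 without dDP irradiated array 1 and de2f1 untreated array 1, and 7 and 7 with the actin covariate. A replicate block left 4 calls (2 and 2). Deviations of 18 same-numbered pairs of arrays correlated at -0.40 to 0.46, with 4 above 0.1, so the numbers were not taken to pair the samples. Without dDP untreated arrays 2 and 3 the effect difference turned to -0.12 for Dp, -0.037 for egr, -0.16 for CycE and 0.10 for Ku80, and with the actin covariate to -0.070 for CycE and 0.0092 for Ku80, none of them called in any setting. Of the recomputed list medians 447 moved by less than their spread and 21 by more. The cause of these changes was not tested. With 3 arrays per group, the smallest called effect difference was 0.66, and steps from a group near the floor could not be measured.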

Other observations

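Several gene families, most of them left out of the results above, showed few differences between the irradiation effects of the 2 mutants. The eye list that follows holds all 13 eye disc markers given above, so it is not a separate observation. Eye patterning and photoreceptor genes had 0 of 34 called by limma, but 31 lay above 0, with a median effect difference of 0.13 and 3 and 0 at an unadjusted p under 0.05 above and below 0, beside 46.5% above 0 and 4.69% and 4.50% over all genes. When dDP untreated array 1 was left out, 10 had an unadjusted limma p under 0.05, all above 0. Of all 18769 probe sets, 1672 above 0 and 2313 below 0 had one in that fit. There 1 of the list, the receptor gene Egfr, was called (0.79, limma adjusted p = 0.0441, against 0.52 on all arrays), beside 2.42% of all probe sets called above 0. The largest of them was Snap25, a protein of synaptic vesicle release, which averaged 9.11 in irradiated and 7.29 in untreated dDP discs and 7.16 in irradiated and 6.42 in untreated de2f1 discs (1.08 ± 0.42, limma adjusted p = 0.518). The 11 brain and neuron markers had a median of 0.28, and their array means were 6.93 to 7.10 and 6.54 to 6.82 in irradiated and untreated dDP discs and 6.43 to 6.74 and 6.24 to 6.95 in irradiated and untreated de2f1 discs. Snap25 is itself among these markers, as are elav, brp and nSyb of the eye list. The part of neural cells in the Snap25 value was not tested.

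Ribosome biogenesis genes had 0 of 28 called and a median of -0.02, proteasome genes 0 of 40 and 0.01, heat shock genes 0 of 15 and 0.02, ecdysone response and synthesis genes 0 of 26 and -0.02, and immune peptide genes 0 of 14 and -0.09, with 2, 2, 0, 0 and 1 of them at an unadjusted limma p under 0.05. The calls in these 5 lists without dDP untreated array 1 were Ns1 of ribosome biogenesis (0.42, adjusted p = 0.0434), Rpt4R of the proteasome (-0.45, 0.0294), whose untreated de2f1 mean was near the floor, and the ecdysone list's Ptth (-0.45, 0.0295). Over all probe sets that fit called 2.42% above 0 and 1.96% below 0. Among cuticle and Osiris genes the median was -0.07, and Lcp9, a larval cuticle gene, had -2.09 ± 0.82 (limma adjusted p = 0.522). Of the detoxification genes, the P450 genes Cyp6a2 and Cyp6w1 had -0.89 ± 0.22 and -1.01 ± 0.29 (limma adjusted p = 0.31 and 0.417), and Cyp6a2 was called without dDP untreated array 1, at -0.996 (adjusted p = 0.0381).

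Just past the threshold, and named after their values were seen, were mia (-0.58 ± 0.09) and CG32195 (0.65 ± 0.10), both with limma adjusted p = 0.0521, CG14079 (-0.79 ± 0.12, adjusted p = 0.0618) and TotE (-0.41 ± 0.07, adjusted p = 0.0657). All 4 were called without dDP untreated array 1. The metalloproteinase gene Mmp2 shows how far a value can rest on which untreated dDP arrays are fitted. Mmp2 read 10.61, 10.29 and 10.24 in irradiated and 10.68, 8.99 and 8.99 in untreated dDP discs, against 9.45, 9.88 and 9.71 in irradiated and 9.86, 9.46 and 9.75 in untreated de2f1 discs. Its effect difference was 0.84 ± 0.53 (limma adjusted p = 0.647) on all arrays and 1.40 ± 0.21 (adjusted p = 0.0141) without dDP untreated array 1. That fit keeps untreated dDP arrays 2 and 3, which gave the values of 8.99 and had actin control gaps of 3.05 and 3.26. Which of the untreated dDP arrays is the unusual one was not tested.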
